A study of Mus musculus with 6 samples.

Results

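Immunoglobulin light chains and the genes of antibody-secreting plasma cells were examined in LSK cells, the lineage-negative, Sca-1 positive, c-Kit high fraction of mouse bone marrow that holds blood stem cells and multipotent progenitors. The members were every gene measured by a probe set with a single symbol that starts with Igkv, Igkj, Igkc, Iglv, Iglj or Iglc, together with 15 named plasma cell genes. This gave 30 of 22180 genes, 15 light chain genes (13 kappa variable segments, Igkj1 and Iglv1) and all 15 plasma cell genes, each represented by its brightest probe set. Constant regions and lambda joining segments are not analysed here. RNA was hybridised to 6 Affymetrix Mouse Gene 2.0 ST arrays, of which 3 are labelled WT and 3 Ctcf conditional KO, here called the knockout. All mice were males aged 8 weeks that received 2 mg of tamoxifen a day by intraperitoneal injection for 3 days, and marrow was sorted 24 hours after the last injection. Ctcf encodes the zinc finger protein that holds chromatin loops at their anchors. The design text speaks of CreER mice beside the conditional knockout, so whether the WT mice carried the recombinase is not settled, and neither the promoter that drives it nor the number of mice per array is given in the sources used here. Each array is labelled a biological replicate. Values are log2 probe set levels, and levels of different genes are not compared because probe sets differ in brightness.

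B cells build the light chain of an antibody by joining a variable segment of the kappa or lambda locus to a joining segment, which is then spliced to a constant region. A plasma cell transcribes its joined heavy and light chain genes at very high rates, and each clone uses its own variable segment. The switch from B cell to plasma cell is driven by the transcription factors encoded by Irf4, Prdm1 and Xbp1, of which the last enlarges the endoplasmic reticulum for secretion. The protein encoded by Pou2af1 is a coactivator at the octamer element of immunoglobulin promoters.

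Promoter sequences are shown first, for the 3 members whose promoters held an element through which the unfolded protein response is known to act. Whether these elements bear on the levels was not tested. RefSeq sequences of the GRCm38.p6 build, 250 bases before to 50 after a start, were matched for 13 of the 30 members, all of them plasma cell genes, with 18 starts in all. The table had no entry for Mzb1, Sec11c or the light chain genes. An ER stress element (CCAAT, any 9 bases, then CCACG, on either strand) lay in 1 of the 18 promoters, that of Derl3, which encodes a derlin of endoplasmic reticulum-associated degradation, against 0.119% of all 32851 promoters. The unfolded protein response element TGACGTGG, or its reverse complement CCACGTCA, lay in 2 of the 18 promoters, those of Pou2af1 and Txndc5, against 0.676% of all promoters. The octamer ATGCAAAT, or ATTTGCAT, lay in 0 of the 18 member promoters and in 1.74% of all promoters. Each of the 3 sequences shown holds a single match. A match describes letters only. The 250 bases before the start follow, 5′ to 3′ on the gene's strand, with the matched letters in capitals, for Derl3 at chr10:75893148-75893397 (plus strand), Pou2af1 at chr9:51213440-51213689 (plus strand) and the start of Txndc5 that holds the match at chr13:38527915-38528164 (minus strand).
Derl3: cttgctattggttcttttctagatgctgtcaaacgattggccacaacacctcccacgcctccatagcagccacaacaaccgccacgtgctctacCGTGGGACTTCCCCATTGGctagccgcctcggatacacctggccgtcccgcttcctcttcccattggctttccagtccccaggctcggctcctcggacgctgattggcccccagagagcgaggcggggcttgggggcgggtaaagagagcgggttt
Pou2af1: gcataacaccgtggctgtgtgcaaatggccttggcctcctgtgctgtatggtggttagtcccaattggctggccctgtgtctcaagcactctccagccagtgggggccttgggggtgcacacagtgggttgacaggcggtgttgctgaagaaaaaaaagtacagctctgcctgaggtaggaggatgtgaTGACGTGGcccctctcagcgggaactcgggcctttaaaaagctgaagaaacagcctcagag
Txndc5: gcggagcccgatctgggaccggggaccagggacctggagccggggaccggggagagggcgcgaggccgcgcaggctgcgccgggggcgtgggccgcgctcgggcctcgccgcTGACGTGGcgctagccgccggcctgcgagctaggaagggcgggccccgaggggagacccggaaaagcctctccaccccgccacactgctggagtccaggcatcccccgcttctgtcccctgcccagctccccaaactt

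On the whole, 28 of the 30 members had a lower mean in the knockout, beside 45.3% of all genes, and none passed the test. That share of all genes also stands beside each later count of lower genes. The median log2 difference, knockout minus WT, was -1.15 over the 15 light chain genes and -0.62 over the 15 plasma cell genes, beside 0.02 over all genes. By limma with Benjamini-Hochberg adjustment over all genes, 0 of 30 members were called at an adjusted p under 0.05, where 0.0721% of all genes were called. The members' adjusted p lay between 0.411 and 0.999. At an unadjusted limma p under 0.05, 11 of 30 were lower and 0 higher, beside 3.08% of all genes lower. The mean was lower by at least 2-fold for 10 members, 8 light chain genes and the plasma cell genes Tnfrsf17 and Slamf7, beside 0.203% of all genes. The knockout arrays lay wholly below the WT arrays for 3 members, Igkv6-14, Igkv8-19 and Sdc1, which is 10.0% of 30 beside 5.32% of all genes. In bulk samples such as these, fewer cells of a type and less RNA per cell cannot be told apart.

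**Figure D1:**
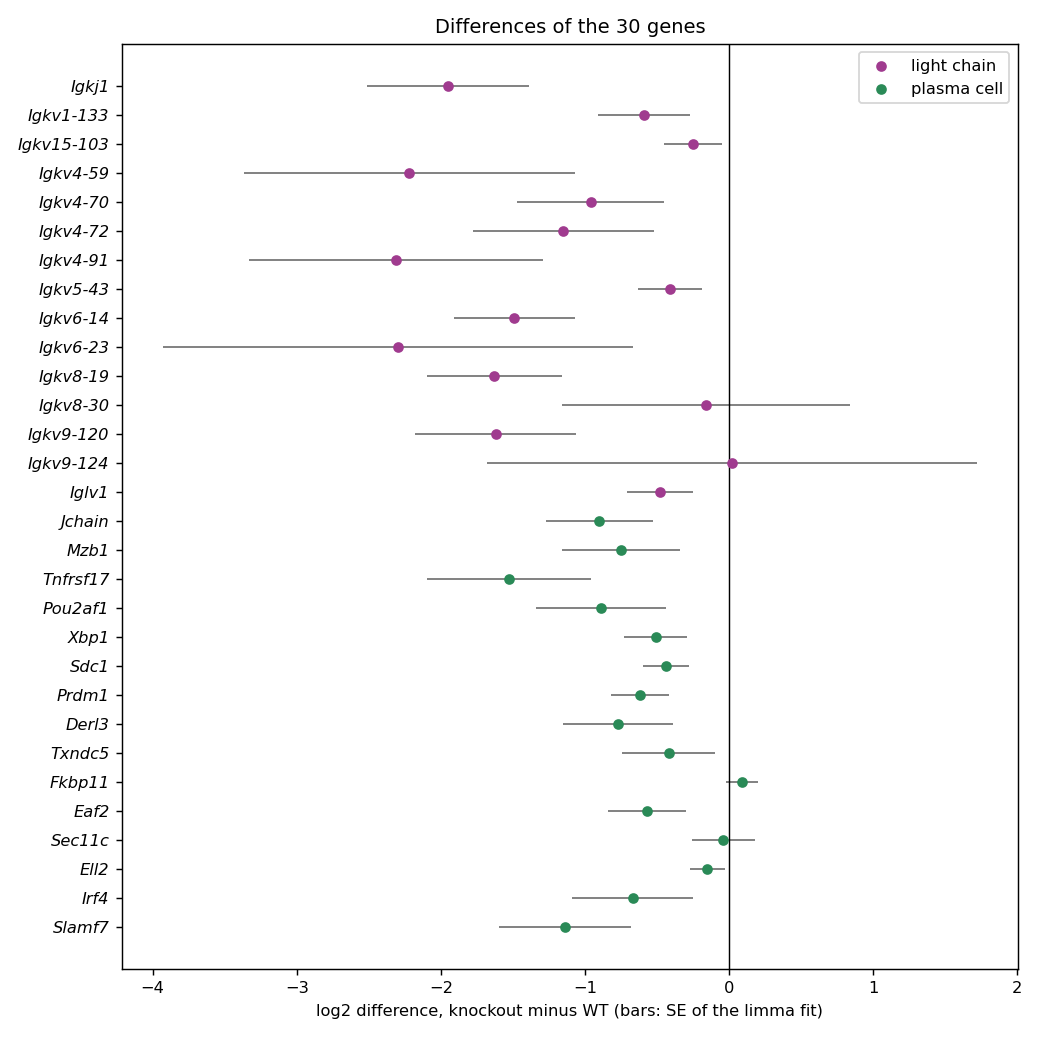
Log2 difference, knockout minus WT (x axis), of each of the 30 genes (y axis), with bars for the SE of the limma fit over 3 arrays per group; purple points are light chain genes and green points plasma cell genes. All but Igkv9-124 and Fkbp11 lie left of 0, and the light chain genes reach from -2.31 to 0.02.

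The genes of antibody secretion and of the cell surface of plasma cells overlapped between the groups except for Sdc1. Jchain, whose product joins IgM and IgA into polymers, stood at 12.94, 12.72 and 11.84 in WT replicates 1, 2 and 3 and at 12.04, 11.97 and 10.81 in knockout replicates 1, 2 and 3. WT replicate 3 lay below knockout replicates 1 and 2, so the groups overlapped, and knockout replicate 3 was lowest of all. The difference was -0.90 (SE 0.37, limma adjusted p = 0.590). Tnfrsf17, which encodes BCMA, the survival receptor of plasma cells, was at 9.81, 9.05 and 7.80 in WT and at 8.21, 7.62 and 6.23 in the knockout. Here WT replicate 3 again lay below knockout replicate 1. The means were 8.89 ± 1.02 and 7.35 ± 1.02 (SD, n = 3 each), a difference of -1.53 (SE 0.57, limma adjusted p = 0.556), or 34.6% of the WT level. Slamf7, a receptor of the SLAM family on plasma cells and NK cells, had 9.44, 9.48 and 8.20 in WT and 8.39, 8.42 and 6.89 in the knockout, a difference of -1.14 (SE 0.46). Its WT replicate 3 lay below both knockout replicates 1 and 2. Sdc1, the syndecan used as the plasma cell marker CD138, had a narrower spread, with 7.44, 7.59 and 7.34 in WT and 7.20, 7.19 and 6.64 in the knockout. Its groups did not overlap (difference -0.44, SE 0.16, limma adjusted p = 0.556). With 3 arrays a side, no exact two-sided permutation test can give a p under 0.1, so none was run. A dimmer probe set of Sdc1 differed by -0.19, with knockout replicates 1 and 3 inside the WT range.

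The transcription factor and coactivator genes were, like those above, lowest in replicate 3 of each group. Pou2af1 was at 9.29, 9.49 and 7.92 in WT and 8.30, 8.56 and 7.18 in the knockout. Both groups spread over more than the difference between their means, which was -0.89 (SE 0.45, limma adjusted p = 0.663). Irf4 had 7.75, 7.88 and 6.31 in WT and 6.58, 7.26 and 6.09 in the knockout, a difference of -0.67 (SE 0.42). WT replicate 3 of Irf4 lay nearer to the lowest knockout array than to the other WT arrays. Prdm1, which encodes the repressor BLIMP1, stood at 6.89, 7.22 and 6.62 and at 6.21, 6.64 and 6.02, and its groups touched only where knockout replicate 2 exceeded WT replicate 3. Its difference of -0.62 (SE 0.20) had the lowest adjusted p of the plasma cell genes (limma adjusted p = 0.477). Xbp1 was at 10.66, 10.69 and 9.94 in WT and at 10.14, 10.02 and 9.61 in the knockout, with a difference of -0.51 (SE 0.22). Among the elongation factors Eaf2 had 6.51, 6.76 and 5.64 against 5.74, 5.96 and 5.51, a difference of -0.57 (SE 0.27). Ell2, which drives processing of secreted heavy chain transcripts, differed by -0.15 (SE 0.12). It had 8.70, 8.78 and 8.58 in WT and 8.37, 8.71 and 8.53 in the knockout, where replicate 1 and not 3 was lowest. Its second, dimmer probe set differed by -0.22 and had its lowest levels, 7.65 and 7.50, on WT replicate 3 and knockout replicate 3, against 8.07 to 8.47 on the other arrays.

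Genes of the secretory route divided into those with a wide and those with a narrow spread. Derl3 was at 8.09, 8.33 and 7.00 in WT and at 7.12, 7.61 and 6.36 in the knockout (difference -0.77, SE 0.38). Mzb1, a co-chaperone of antibody assembly, was at 9.03, 9.12 and 7.63 and at 7.86, 8.41 and 7.28 (difference -0.75, SE 0.41). In both genes WT replicate 3 lay below knockout replicates 1 and 2. Txndc5, a protein disulfide isomerase, had 9.03, 9.54 and 8.26 in WT and 8.42, 9.02 and 8.13 in the knockout, a difference of -0.42 (SE 0.32). Sec11c, a catalytic subunit of the signal peptidase, had means of 8.79 ± 0.33 and 8.75 ± 0.37 (SD, n = 3 each), a difference of -0.04 (SE 0.22). Fkbp11, a prolyl isomerase of the endoplasmic reticulum, lay between 5.80 and 6.10 on all arrays and differed by 0.09 (SE 0.11). Sec11c kept the order of arrays, with replicate 3 lowest in each group, while Fkbp11 barely varied.

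**Figure D2:**
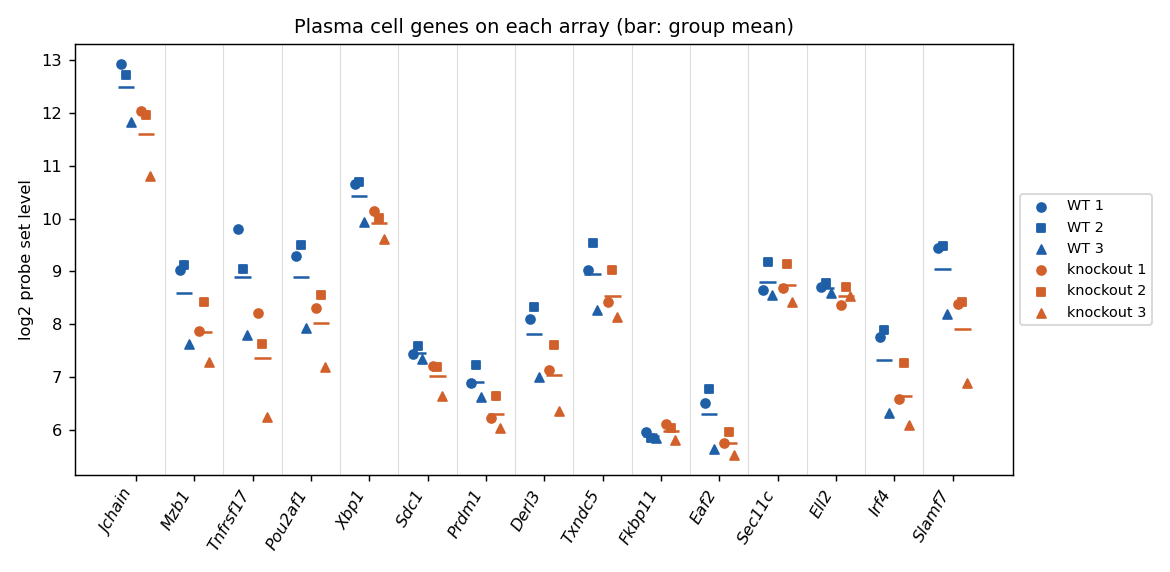
Log2 probe set levels (y axis) of the 15 plasma cell genes (x axis) on each array; blue symbols are WT and orange symbols knockout, the symbol shape gives the replicate number and the bar the group mean. Triangles, replicate 3, are the lowest symbols of both groups for 13 of the 15 genes.

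Most plasma cell genes ranked the arrays alike. Knockout replicate 3 was the lowest of the 6 arrays for 14 of the 15 genes, beside 13.0% of all genes. WT replicate 2 was the highest for 12, beside 16.2% of all genes. Replicate 3 was lowest within both groups for 13 of 15, beside 7.21% of all genes. After centring each gene on its mean over the 6 arrays, the median over the 15 genes was 0.49, 0.74 and -0.27 in WT replicates 1, 2 and 3 and -0.16, 0.09 and -0.60 in knockout replicates 1, 2 and 3. The median difference of the list was -0.39 without WT replicate 2, and between -0.90 and -0.44 with any other array left out. With each array left out in turn, none of the 15 was called in any fit.

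Light chain genes had larger SDs between arrays of 1 group than most genes. The SD between arrays within groups, from the fit, had a median of 0.99 over the 15 light chain genes (range 0.32 to 3.06) and of 0.56 over the plasma cell genes (range 0.12 to 1.02), beside 0.16 over all genes. Only 20 of 22180 genes had an SD above 1, and 7 of these 20, which are also 7 of the 30 members, were 6 light chain genes and Tnfrsf17.

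**Figure D3:**
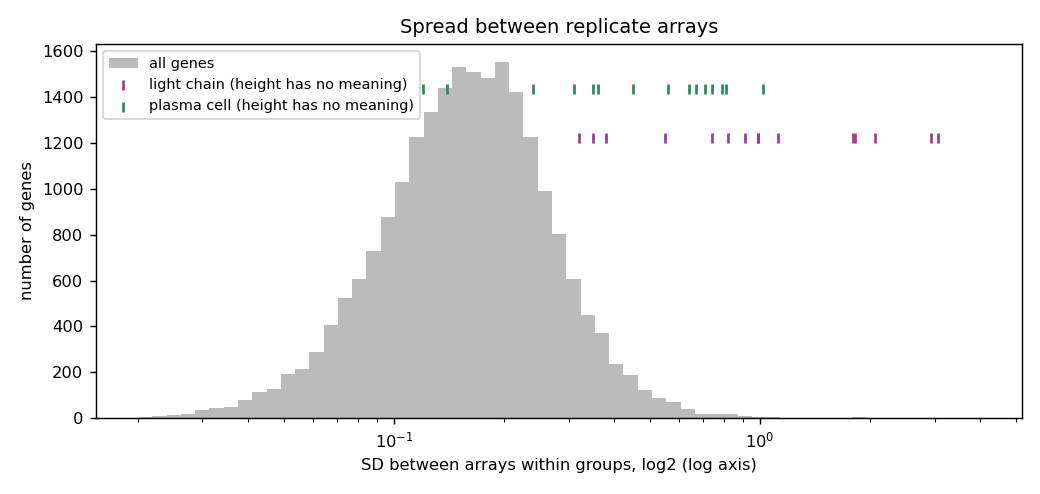
Number of genes (y axis) by the SD between arrays within groups on the log2 scale (x axis, logarithmic), for all genes in grey; ticks mark the 15 light chain genes (purple) and 15 plasma cell genes (green), at a height without meaning. The light chain ticks lie in the right tail, from 0.32 to 3.06.

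Among the light chain genes, 3 bright probe sets had the smallest SDs within groups, 0.32 to 0.38, still at percentiles 92.1 to 96 of all genes. Their differences were smaller than the light chain median of -1.15. Igkv5-43, by its brightest probe set, was at 14.06, 13.90 and 13.34 in WT and at 13.72, 13.11 and 13.24 in the knockout, a difference of -0.41 (SE 0.22, limma adjusted p = 0.684). Igkv15-103 was at 13.63, 13.70 and 13.10 and at 13.52, 12.91 and 13.24, a difference of -0.25 (SE 0.20). Iglv1, the only lambda gene, had 12.58, 12.20 and 11.93 in WT and 12.26, 11.53 and 11.49 in the knockout, a difference of -0.48 (SE 0.23). In all 3 the groups overlapped. The other probe sets of Igkv5-43 disagreed with the brightest in size, with differences of -3.07 and -2.38 and levels that ran from 4.32 to 12.41 and from 5.18 to 11.77, so the value of this gene depends on the probe set. Probe sets of near-identical segments can also share transcripts, and the value of any single segment is uncertain for that reason. A further 3 probe sets that list several symbols, a light chain symbol among them, are no members. They lay between 11.32 and 14.26, which is the highest value of the whole table, and differed by -0.55, -0.41 and -0.15. The symbols of the probe set at -0.41 are those of the members Igkv9-124 and Igkv4-70. The probe set at -0.15 lists the members Igkj1 and Igkv6-23 beside another segment. By their own probe sets these 4 members differed by 0.02, -0.96, -1.95 and -2.30. How much each listed gene adds to a shared probe set was not tested.

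Igkj1, Igkv9-120, Igkv6-14 and Igkv8-19 were the light chain genes with the lowest unadjusted p. Igkj1, the joining segment, stood at 12.04, 12.85 and 11.16 in WT and at 9.72, 11.32 and 9.16 in the knockout. Only knockout replicate 2 and WT replicate 3 overlapped, and the difference was -1.95 (SE 0.56, limma adjusted p = 0.418), or 25.8% of the WT level. Igkv9-120 was at 13.38, 12.73 and 10.97 against 10.93, 11.25 and 10.03, a difference of -1.62 (SE 0.56). For Igkv6-14 the values were 10.08, 9.43 and 9.57 in WT and 9.15, 8.28 and 7.17 in the knockout. For Igkv8-19 they were 7.53, 9.44 and 7.41 in WT and 6.41, 6.76 and 6.31 in the knockout. These are the light chain genes whose groups did not overlap. They differed by -1.49 (SE 0.42, limma adjusted p = 0.411) and -1.63 (SE 0.47, limma adjusted p = 0.416). With 1 array left out Igkv6-14 moved between -1.97 and -0.98 and Igkv8-19 between -1.99 and -0.98, and neither was called.

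Several variable segments were high or low on single arrays. Igkv6-23 stood at 11.15 in WT replicate 1 but at 6.32 and 6.31 in WT replicates 2 and 3, and at 6.72, 7.99 and 2.18 in the knockout. Its difference of -2.30 had an SE of 1.63. Igkv9-124 was at 9.57, 3.08 and 5.10 in WT and at 7.20, 7.87 and 2.76 in the knockout, with means of 5.92 ± 3.32 and 5.94 ± 2.78 (SD, n = 3 each). Igkv4-91 was at 12.84, 12.43 and 11.84 in WT and at 12.28, 7.31 and 10.58 in the knockout, with knockout replicate 2 far below the rest. Its difference was -2.31 (SE 1.02), and -0.94 without that array. Igkv4-59 was at 12.23, 10.59 and 10.27 in WT and at 10.05 and 10.68 in knockout replicates 1 and 2, but at 5.69 in knockout replicate 3. Without that array its difference of -2.22 became -0.67. Igkv8-30 was low in WT replicate 2, at 6.27 where WT replicates 1 and 3 had 9.86 and 10.51, and it stood at 9.73, 7.56 and 8.88 in the knockout. Of these 5 segments, Igkv6-23, Igkv9-124 and Igkv4-59 were highest in WT replicate 1 and lowest in knockout replicate 3, and Igkv4-91 and Igkv8-30 had their lowest value on another array.

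The remaining kappa segments were highest in WT replicate 1. Igkv4-70 was at 13.08, 12.45 and 12.15 in WT and at 12.60, 11.93 and 10.28 in the knockout, a difference of -0.96 (SE 0.51). Igkv4-72 was at 13.41, 12.42 and 12.20 and at 12.59, 12.12 and 9.87, a difference of -1.15 (SE 0.63). In both the low value of knockout replicate 3 stood apart from the other 5 arrays. Igkv1-133 was at 12.08, 11.75 and 11.40 in WT and at 10.46, 11.86 and 11.13 in the knockout, where replicate 1 was lowest (difference -0.59, SE 0.32).

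**Figure D4:**
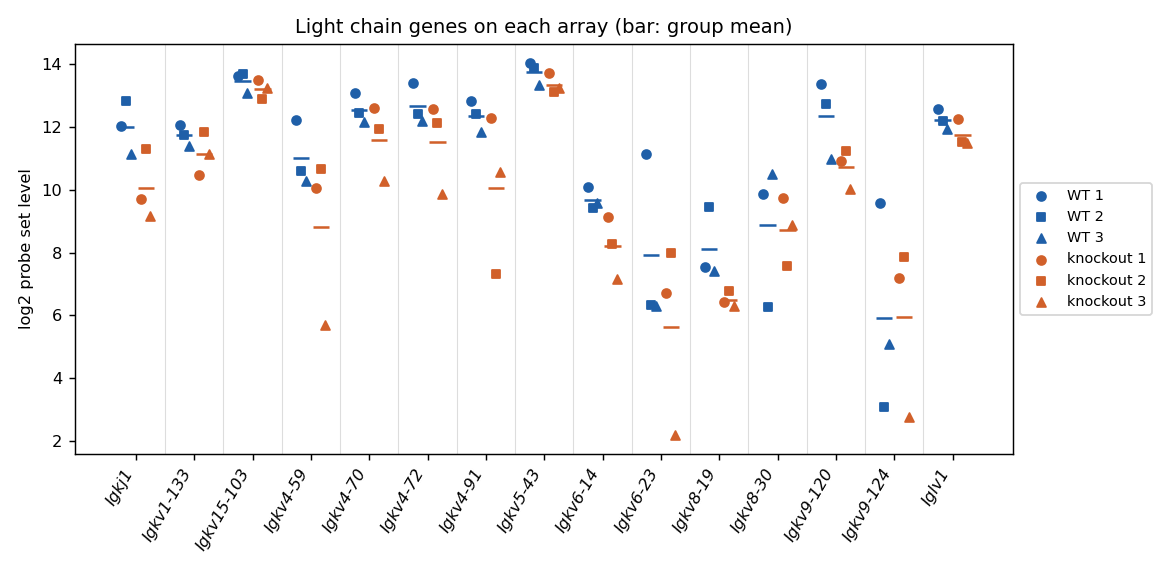
Log2 probe set levels (y axis) of the 15 light chain genes (x axis) on each array; blue symbols are WT and orange symbols knockout, the symbol shape gives the replicate number and the bar the group mean. Igkv6-23, Igkv9-124, Igkv4-59 and Igkv4-91 each have at least 1 array far from the rest of its group.

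Over arrays, the light chain list was highest in WT replicate 1, where 11 of 15 genes had their highest value, beside 15.5% of all genes. It was lowest in knockout replicate 3, where 10 of 15 had their lowest, beside 13.0% of all genes. The medians of the centred levels were 1.06, 0.35 and 0.07 in WT replicates 1, 2 and 3 and 0.17, -0.30 and -1.52 in knockout replicates 1, 2 and 3. WT replicate 3 thus lay below knockout replicate 1. The median difference of -1.15 became -0.70 without WT replicate 1 and -0.57 without knockout replicate 3, and lay between -1.59 and -1.12 with any of the other arrays left out. With both of these arrays left out, a choice made after seeing the data, it was -0.18.

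Position in the kappa locus was not used to choose the members. In the gene order of the RefSeq table of GRCm38.p6, the 13 measured kappa segments, of 162 listed there, were divided into 3 runs counted from the joining segments. The 5 segments nearest to them had a median difference of -1.49 (range -2.30 to -0.16), the next 4 one of -1.69 (range -2.31 to -0.96), and the 4 farthest one of -0.42 (range -1.62 to 0.02). The ranges overlap, and this difference was not tested. Without knockout replicate 3 the 3 medians were -0.57, -0.49 and -0.42, so that near and far segments lay close together. Without WT replicate 1 they were -0.69, -1.20 and -0.30. They were -1.46, -1.78 and -0.99 without WT replicate 2, and -1.53, -1.29 and -0.95 without knockout replicate 2. They were -1.55, -1.98 and -0.61 without WT replicate 3, and -1.59, -2.26 and -0.50 without knockout replicate 1. The farthest run was the least negative with any 1 array left out, but the size of the gap varied with the array. Without both WT replicate 1 and knockout replicate 3, a choice made after seeing the data, the medians were -0.20, -0.05 and -0.30.

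Other genes of the pathway had smaller median differences. None of the 24 measured genes of secretion and the unfolded protein response was called, 12 were lower and 12 higher, and their median difference was 0.00. Hsp90b1, the chaperone GRP94, differed by -0.06, Sec61a1, the pore of the translocon, by 0.10 and Spcs2 of the signal peptidase by 0.03. Creb3l2, a membrane-bound transcription factor, had the largest negative difference of this list, -0.52 (SE 0.15), and Sdf2l1, a chaperone component, the largest positive one, 0.45 (SE 0.17). Of 15 measured regulators and surface genes of plasma cells outside the members, 13 were lower, 0 were called and the median was -0.12. Ly6c2 differed by -0.02, Fut8 by -0.05 and Cxcr4, the receptor that holds plasma cells in the marrow, by 0.25. Tent5c, an RNA poly(A) polymerase of plasma cells, had 7.92, 8.19 and 6.96 in WT and 7.15, 7.35 and 6.21 in the knockout. Its replicate 2 was highest and its replicate 3 lowest in each group, as for Pou2af1, Irf4 and Prdm1.

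The surrogate light chain of B progenitors was measured by 4 genes. Igll1, which encodes lambda 5, stood at 11.01 in WT replicate 1 and at 6.09 and 7.94 in WT replicates 2 and 3, and at 7.65, 6.51 and 6.26 in the knockout. Its difference of -1.54 had an SE of 1.02 (limma adjusted p = 0.761). Vpreb3 was likewise highest in WT replicate 1, at 6.04 against 4.64 to 4.89 on the other arrays, while Vpreb1 was highest in WT replicate 2, at 5.15, and Vpreb2 in knockout replicate 2, at 7.12. WT replicate 1 was thus the highest array for 2 of the 4 genes. Of 15 B cell identity and light chain recombination factors, 14 were lower and 1 was called, Rag2, a subunit of the recombinase that joins the segments (log2 -1.45, limma adjusted p = 0.0455). Ikzf1 differed by -0.03, Mef2c by -0.31 and Spi1 by -0.01.

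Markers of other cells also differed between the arrays, and their part in the differences was not tested. Of 13 measured B cell genes 11 were lower and 0 were called (median -0.09). Their mean log2 level lay between 7.12 and 7.58 in WT and between 6.74 and 7.28 in the knockout. Cd79a, a chain of the B cell receptor, was at 9.64, 8.93 and 7.74 in WT and at 7.85, 8.12 and 6.60 in the knockout, while Cd79b differed by -0.09, H2-Ab1 by 0.02 and Cd37 by -0.05. At an unadjusted limma p under 0.05, 4 of the 13 were lower, which is 30.8% beside 3.08% of all genes. They were Cd79a, at -1.25, Ms4a1, which encodes CD20, at -0.83, Fcmr, the IgM receptor, at -0.79 and the kinase gene Blk at -0.55, and the groups of Fcmr and Blk did not overlap. Knockout replicate 3 was the lowest array for 8 of the 13. At the same unadjusted limit, 5 of 9 neutrophil genes (55.6%) and 3 of 9 B progenitor genes (33.3%) were lower. So were 2 of 10 plasmacytoid dendritic cell genes and 1 of 8 LSK genes. No T and NK, mast and basophil or erythroid gene was. The 9 B progenitor genes had mean levels of 7.28 to 8.23 in WT, highest in WT replicate 1, and of 6.75 to 6.82 in the knockout; 8 were lower and 2, Il7r (log2 -2.28) and Rag2, were called. Dntt, the terminal transferase, differed by -0.57 without overlap, and Blnk by -0.15. Ebf1, the factor that commits cells to the B lineage, was at 7.76 in WT replicate 1 and between 5.37 and 5.90 on all other arrays. Plasmacytoid dendritic cells are secretory cells too; of 10 of their genes 7 were lower and 0 called, with mean levels of 7.18 to 7.35 in WT and 6.92 to 7.17 in the knockout. Their factor genes Tcf4 and Irf8 differed by 0.01 and -0.27. Cox6a2, at -0.79 (SE 0.15, limma adjusted p = 0.158), and Dntt, also of this list, were lower without overlap. Neutrophil genes showed an array pattern like that of the light chain list. Of 9, 7 were lower and 0 called, 6 were highest in WT replicate 1 and 6 lowest in knockout replicate 3, with a median difference of -0.52, a median SD within groups of 0.66 and mean levels of 6.29 to 7.70 in WT and 6.03 to 6.70 in the knockout. Unlike the light chain list, their centred median was lowest among the WT arrays in replicate 2, at -0.51. Ngp, a granule protein gene, was at 11.49, 9.08 and 10.59 in WT and at 8.37, 8.01 and 7.46 in the knockout, a difference of -2.44 without overlap (SE 0.52, limma adjusted p = 0.241). Ltf, lactoferrin, differed by -1.04 and S100a8 by -0.52. Arrays carry no detection call, so no marker can be said to be at 0.

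The LSK label and the deletion were checked on the same arrays. The 8 measured LSK genes had mean levels of 9.48 to 9.73 in WT and 9.44 to 9.55 in the knockout. Their median difference was -0.10 and 0 were called. Kit lay between 10.22 and 10.65 in WT and between 10.12 and 10.21 in the knockout, lower without overlap (difference -0.22, SE 0.13). Slamf1 was higher without overlap (difference 0.33, SE 0.11). Each is 12.5% of the 8, beside 5.32% of all genes lower and 7.96% higher without overlap. Cd34 lay between 11.78 and 12.04, Flt3 differed by -0.42 and Meis1 by -0.04. Ctcf was lower on every knockout array, at 56.7% of the WT level (limma adjusted p = 0.104), and which exons the deletion removes is not stated in the labels. T and NK cell genes were lower for 6 of 8 with 0 called (Cd3e -0.23, Lat 0.12, Nkg7 0.68), and erythroid genes for 2 of 3 with 0 called (Klf1 -0.13, Tfrc -0.18, Car1 0.56). Mast and basophil genes were lower for 1 of 7, with Hdc called higher (2.32), while Mcpt8 differed by 1.11, Cpa3 by 0.45 and Gata2 by 0.34. Array medians over all probe sets lay between 5.99 and 6.07, and with 3 arrays per group their number limits the precision.

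**Figure D5:**
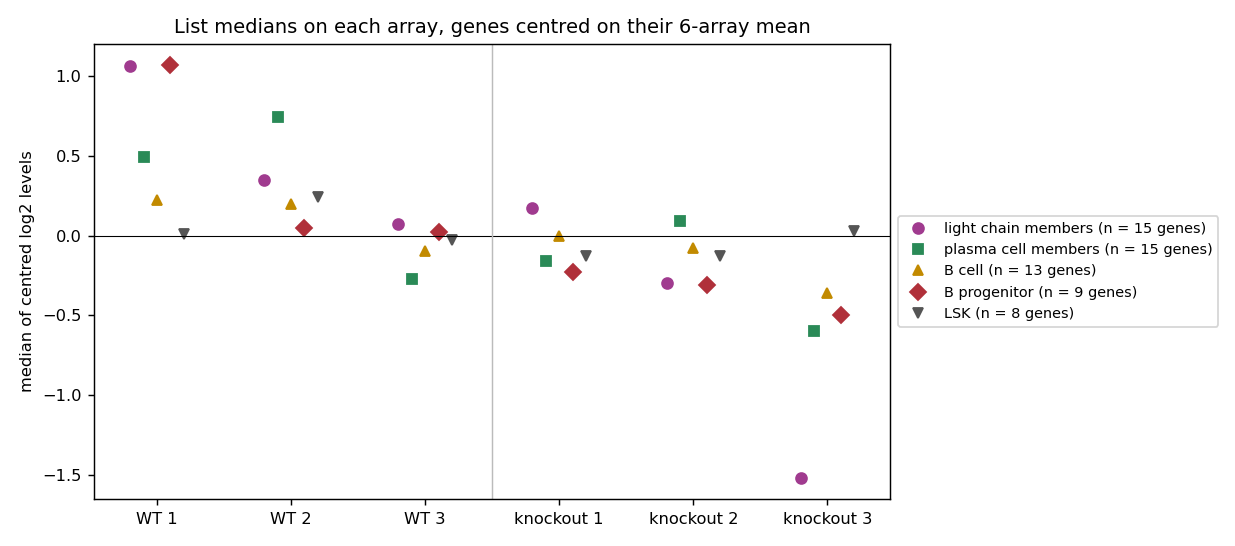
Median of log2 levels centred on each gene's mean over the 6 arrays (y axis) for each list, on each array (x axis); symbols of the same array are offset sideways to be seen. Light chain genes are highest in WT replicate 1 (1.06) and lowest in knockout replicate 3 (-1.52), and the LSK genes stay between -0.13 and 0.24.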

How the data were processed

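LSK RNA of 6 mouse arrays was analysed. The authors deposited log2 probe set values; the tools were RMA and oligo per the submitters' processing notes, whose versions, like the genome build, the sources used here leave out. RMA normalizes arrays by quantiles. Differences of very dim and very bright probe sets can be compressed on arrays. Of 41345 probe sets, 23521 have 1 gene symbol in GEO's platform annotation, 1814 several and 16010 none here; the first gave 22180 genes, each by its brightest probe set, with no filter on low values. Entrez identifiers of 23328 of the single-symbol probe sets matched the RefSeq gene table of GRCm38.p6, and 0 symbols changed.

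Differences are knockout minus WT from a limma fit (version 3.58.1, R 4.3.3; lmFit and eBayes with group as the only term) across all genes. A gene was called where its p, adjusted by Benjamini-Hochberg, was under 0.05. The labels call the arrays biological replicates without naming mice, so p-values measure the spread between these arrays. The members and lists were chosen with earlier results of these data known. The rule for names took all plasma cell genes, Igkj1 and the variable segments with the highest means or largest differences. Of other lists it took the 3 genes with the highest mean and the called genes. Vpreb1, Cd79a, Ms4a1, Fcmr, Blk, Ebf1, Cox6a2, Tent5c, Creb3l2, Sdf2l1, Kit, Slamf1 and the other variable segments were chosen after their values were seen. Alternatives were trend and robust settings, array weights, brighter genes only, a further quantile normalization, centring, the mean of probe sets, the replicate block, each array left out, and other thresholds.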

Additional observations from a re-analysis of the deposited data

Results flagged for a closer look

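Probe sets without a symbol in the annotation used here were in no comparison. Those whose numbers fall inside the runs of kappa light chain probe sets (89 in all) included 2 with signal in the knockout well above WT, by a threshold of 3 on the log2 scale chosen after seeing the data. Probe set 17459406 was at 2.42, 2.55 and 2.64 in WT and at 7.99, 2.64 and 2.49 in the knockout, so that its highest knockout array exceeded its highest WT array by 5.35. For probe set 17467379 the values were 4.80, 4.37 and 4.10 in WT and 9.47, 7.75 and 4.42 in the knockout, a gap of 4.68. In neither were all knockout arrays above WT, and the genes behind them are not named here.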

How the results depend on the processing

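The light chain median stayed between -1.49 and -1.15 with trend and robust settings, array weights, brighter genes only, a further quantile normalization, centring, the mean of probe sets and the replicate block, and the plasma cell median between -0.68 and -0.61. With 1 array left out they lay between -1.59 and -0.57 and between -0.90 and -0.39. Without WT replicate 1 and knockout replicate 3 together, an alternative added after seeing the data, the light chain median was -0.18, the plasma cell median -0.27, and 0 genes were called among all genes. The count over all genes was 25 with trend and robust settings, 26 at an adjusted p under 0.1, 56 at an unadjusted p under 0.05 with 2-fold change, and between 0 (without knockout replicate 1) and 8 (without WT replicate 3) with 1 array left out, against 16. By the unadjusted rule 5 light chain and 2 plasma cell genes passed; with 1 array left out 0 of either list did at the adjusted threshold. The causes were not tested.

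With the replicate block 1 light chain gene, Igkj1 (limma adjusted p = 0.0392), 1 plasma cell gene, Tnfrsf17 (limma adjusted p = 0.0357), and 7 genes in all were called. Over the alternatives the adjusted p ran from 0.0392 to 0.849 for Igkj1 and from 0.0357 to 0.904 for Tnfrsf17. The numbers are not shown to pair the arrays: deviations of same-numbered arrays correlated at 0.294, 0.016 and -0.14 across genes, and not every array correlated best with its own number.

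The sign turned in 16 of 417 fits of single members. Igkv9-124, at 0.02, was at -0.87 with array weights, -0.06 with a further quantile normalization, -0.04 with centring, -1.40 and -0.39 without WT replicates 2 and 3, -0.61 and -0.94 without knockout replicates 1 and 2, and 3.44 without both arrays named above. Igkv8-30, at -0.16, was at 0.33 and 0.66 without WT replicates 1 and 3, 0.42 without knockout replicate 2, -1.46 without WT replicate 2 and 0.25 without both arrays. Sec11c, at -0.04, was at 0.15 without WT replicate 2, 0.12 and -0.24 without knockout replicates 3 and 2, and 0.05 without both arrays. Without both arrays Igkv4-72 was at 0.04 and Igkv6-23 at 1.04, and their lowest values were -1.68 without knockout replicate 1 and -3.48 without knockout replicate 2.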

Other observations

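On the whole table of 41345 probe sets, 15 had a single array at least 3 above each of the other 5 on the log2 scale, a threshold chosen after seeing the data. The named ones were Igkv6-23, a dimmer probe set of Igkv5-43, and Igll1, all highest in WT replicate 1. Of the other 12, which have no symbol here, 7 are numbered inside the kappa runs. Those outside the runs include 17284373, 17284515, 17284602 and 17284654, with numbers close to those of the heavy chain probe sets 17284463 (Igh-VS107) and 17284614 (Ighg3). Probe set 17459303 was at 10.77 in WT replicate 2 and between 1.91 and 2.62 on the other 5 arrays. Probe set 17459350 was at 10.59 in WT replicate 1 and between 3.16 and 5.50 elsewhere, and probe set 17467413 at 6.72 in WT replicate 3 against 2.42 to 2.63. The array that stood apart was WT replicate 1 for 9 of the 15, WT replicate 2 for 4, WT replicate 3 for 1 and knockout replicate 1 for 1.

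In the other direction, 18 probe sets had a single array at least 3 below each of the others, and knockout replicate 3 was that array for 14. They include Igkv6-23, Igkv4-59 and Igkv4-91, the last low in knockout replicate 2, and 8 unnamed probe sets inside the kappa runs, all low in knockout replicate 3. The other 3 named ones are heavy chain probe sets. Those of Igh-VS107 and Ighg3 were low in knockout replicate 3, and that of Ighm in knockout replicate 1. A further 4 have no symbol and lie outside the kappa runs. Over the 89 unnamed probe sets of the runs the median difference was -1.22, with 81 lower and 8 higher in the knockout. The groups did not overlap, with the knockout lower, for 23 of them, which is 25.8% beside 5.32% of all genes, and with the knockout higher for 0, beside 7.96% of all genes.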
